A study of Mus musculus with 2756 samples.

Results

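The mitosis genes followed here are 38 named genes of the G2 and M phases of the cell cycle. They stood among 16441 genes in a table of counts from 2756 single cells of the mouse embryonic neocortex. They were taken by name, and all 38 were in the table. By role they comprised 6 genes of cyclins and Cdk1, 5 mitotic kinases and checkpoint genes, 2 partners of the anaphase promoting complex, 3 genes of the chromosomal passenger complex, 6 of centromere and kinetochore, 7 of the spindle, 4 of cytokinesis and 5 of chromosome structure. Their level was followed as CPM, a gene's counts scaled to the same library total, from counts summed over cells, and within each cell as the sum of their counts over the cell's total.

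Cells enter mitosis when Cdk1, held by cyclin A and then by cyclin B, reaches full activity, and they leave it when the anaphase promoting complex marks the cyclins for destruction. The transcripts of these genes are made late in the cell cycle, peak in G2 and M and fall as cells return to G1 or stop dividing. In the developing neocortex, apical progenitors divide at the ventricular surface, basal progenitors divide away from it, and the neurons they produce no longer divide.

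FlashTag, a fluorescent dye that labels cells dividing next to the ventricle, was injected on embryonic day 12, 13, 14 or 15, written E12, E13, E14 and E15. Dissected tissue of the putative primary somatosensory cortex was collected after 1, 24 or 96 h, which gives 12 conditions. The brightest 5% of cells by dye were sorted, so cells whose dye had been diluted by later divisions could fall outside the gate. Strain and genotype are not given in the sources used here, and no treatment other than the dye is named. The labels place each cell in 1 of 15 clusters of the authors, whose names mark apical progenitors (AP), basal progenitors (BP), neurons of 1 day (N1d) or 4 days (N4d), interneurons (IN) and astrocytes (Astro).

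Counts were summed over the cells of a class and injection day, which gave 24 sums, 4 days each for AP at 1 h, AP, BP and N1d at 24 h, and N4d and IN at 96 h. They covered 2515 cells and held 4012900 to 80002517 counts each, and the smallest, BP of E14, held 8 cells. No label names an animal, litter or replicate, so the injection days served as replicates of a class, and a p-value reflects the spread of these sums alone, which may be technical. The 6 run codes in the titles are each nested in 1 collection time, so run and time cannot be told apart. The clusters were drawn from expression in the same cells, so differences between classes in these genes describe the clusters in part. In a sum over cells, more cells with a transcript and more of it per cell cannot be told apart. Class markers followed the labels: summed basal progenitor markers were 2091 to 5277 CPM in BP at 24 h and 704 to 1169 CPM in AP at 24 h, and summed young neuron markers were 6819 to 9410 CPM in N1d at 24 h and 183.4 to 378 CPM in AP at 1 h. Microglia markers (3 in the table) summed to at most 9.25 CPM in a class sum.

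The promoters of these genes share letters that the choice by name did not use. Promoters of G2 and M genes are known for the cell cycle genes homology region (CHR), with the core TTTGAA, bound by DREAM and by MuvB complexes with B-Myb and FoxM1, and for CCAAT boxes, bound by NF-Y. RefSeq sequences on GRCm38.p6, from 250 bases before to 50 after the start site, were at hand for 33 of the 38 genes. Cdca2, Ccna2, Smc4, Tpx2 and Aurkb had no entry. TTTGAA stood on either strand in 25 of the 33 genes (75.8%), against 20.2% of all 27025 genes with promoters of this length. CCAAT stood in 27 of 33 (81.8%), against 41.1% of all genes, and both motifs stood in 23 (69.7%), against 7.97%. The CHR variant TTCGAA stood in 3 of 33, against 1.80% of all genes. TTTCCCGC and TTTGGCGC, motifs of E2F sites in S phase genes, stood in 0 of the 33, against 1.24% and 0.585% of all genes. In a list of 37 S phase genes, TTTGAA stood in 3 of the 30 with a promoter, TTTCCCGC in 5 and TTTGGCGC in 5. In a list of 57 other G2 and M genes of the table, TTTGAA stood in 27 of 42 and CCAAT in 30 of 42.

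The 7 promoters printed here show the arrangement in a cyclin pair, in the kinase they activate, and in members with calls between classes. Capitals mark TTTGAA and CCAAT or their reverse complements TTCAAA and ATTGG. Sequences run 5′ to 3′ on the gene's strand, and a position is that of a motif's first base, with 0 at the start site.
Ccnb1, chr13:100786437-100786736, minus strand: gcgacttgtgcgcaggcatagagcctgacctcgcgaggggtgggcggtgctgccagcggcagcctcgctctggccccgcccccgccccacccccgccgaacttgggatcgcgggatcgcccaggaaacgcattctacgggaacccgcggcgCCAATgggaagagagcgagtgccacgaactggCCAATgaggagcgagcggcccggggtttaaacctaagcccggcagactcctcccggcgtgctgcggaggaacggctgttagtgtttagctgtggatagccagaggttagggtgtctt
Ccnb2, chr9:70421505-70421804, minus strand: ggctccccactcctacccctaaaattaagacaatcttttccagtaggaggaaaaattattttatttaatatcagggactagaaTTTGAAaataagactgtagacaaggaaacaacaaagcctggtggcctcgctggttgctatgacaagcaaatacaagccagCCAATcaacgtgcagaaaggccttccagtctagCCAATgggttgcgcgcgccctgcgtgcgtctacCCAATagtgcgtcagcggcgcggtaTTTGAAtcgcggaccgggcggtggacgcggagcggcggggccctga
Cdk1, chr10:69352863-69353162, minus strand: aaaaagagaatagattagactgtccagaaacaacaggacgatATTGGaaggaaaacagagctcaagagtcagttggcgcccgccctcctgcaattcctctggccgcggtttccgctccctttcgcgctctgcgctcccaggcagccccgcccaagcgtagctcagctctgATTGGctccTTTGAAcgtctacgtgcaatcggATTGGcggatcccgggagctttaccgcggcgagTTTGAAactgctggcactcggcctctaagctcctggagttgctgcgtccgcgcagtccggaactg
Ube2c, chr2:164769679-164769978, plus strand: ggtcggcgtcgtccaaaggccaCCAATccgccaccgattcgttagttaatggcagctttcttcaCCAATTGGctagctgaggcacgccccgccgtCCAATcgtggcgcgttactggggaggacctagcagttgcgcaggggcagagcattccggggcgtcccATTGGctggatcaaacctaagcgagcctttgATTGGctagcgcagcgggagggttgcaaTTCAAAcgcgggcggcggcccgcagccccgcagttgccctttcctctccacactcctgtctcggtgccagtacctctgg
Cdca8, chr4:124936868-124937167, minus strand: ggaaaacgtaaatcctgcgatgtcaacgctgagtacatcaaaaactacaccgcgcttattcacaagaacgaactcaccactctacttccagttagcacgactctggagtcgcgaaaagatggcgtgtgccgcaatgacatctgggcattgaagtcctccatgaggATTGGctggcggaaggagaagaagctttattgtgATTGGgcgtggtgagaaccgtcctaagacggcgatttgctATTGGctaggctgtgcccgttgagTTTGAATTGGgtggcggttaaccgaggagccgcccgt
Cenpa, chr5:30666636-30666935, plus strand: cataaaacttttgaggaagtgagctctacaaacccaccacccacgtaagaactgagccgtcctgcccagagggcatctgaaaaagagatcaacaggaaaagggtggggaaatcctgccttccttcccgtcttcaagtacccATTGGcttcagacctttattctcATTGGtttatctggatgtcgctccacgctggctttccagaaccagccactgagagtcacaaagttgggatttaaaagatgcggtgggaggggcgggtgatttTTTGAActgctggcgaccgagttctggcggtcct
Hmgb2, chr8:57511593-57511892, plus strand: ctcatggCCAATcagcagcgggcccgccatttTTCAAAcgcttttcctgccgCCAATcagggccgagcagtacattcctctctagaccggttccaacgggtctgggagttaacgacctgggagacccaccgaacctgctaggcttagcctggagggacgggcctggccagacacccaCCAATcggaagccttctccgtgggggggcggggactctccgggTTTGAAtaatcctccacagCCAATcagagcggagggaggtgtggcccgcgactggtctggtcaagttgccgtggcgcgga
Ccnb1 holds 2 CCAAT boxes, at -99 and -67, and no TTTGAA in this window. Ccnb2 holds 3 CCAAT boxes, at -87, -54 and -21, and a TTTGAA at 4, just inside the transcript, beside a distal one at -167. Cdk1 holds TTTGAA at -71 and -15 and boxes on the opposite strand at -208, -80 and -48. In Cdca8 the TTTGAA at 13 overlaps an inverted CCAAT box by its last base, and in Ube2c a pair of boxes overlaps on opposite strands. Boxes on the same strand with first bases 31 to 34 bases apart stood in 8 of the 33 genes (Aurka, Ccnb1, Ccnb2, Cdca8, Cdk1, Hmmr, Spc25 and Ube2c), against 1.04% of all genes. Such pairs stood in 4 of 42 other G2 and M genes (9.52%) and in 1 of 30 S phase genes (3.33%). That spacing was chosen after the sequences were seen. A motif match is a description of letters, and binding was not measured.

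The plot of motif position shows where the letters stand. A TTTGAA with its first base 0 to 49 bases after the start was found in 17 of 33 genes (51.5%), against 2.64% of all genes, and in the 50 bases before the start in 7 (21.2%), against 3.30%. CCAAT lay further out. It began -100 to -51 from the start in 20 genes (60.6%), against 14.4% of all genes, and in the last 50 bases before the start in 20, against 10.5%.

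**Figure D1:**
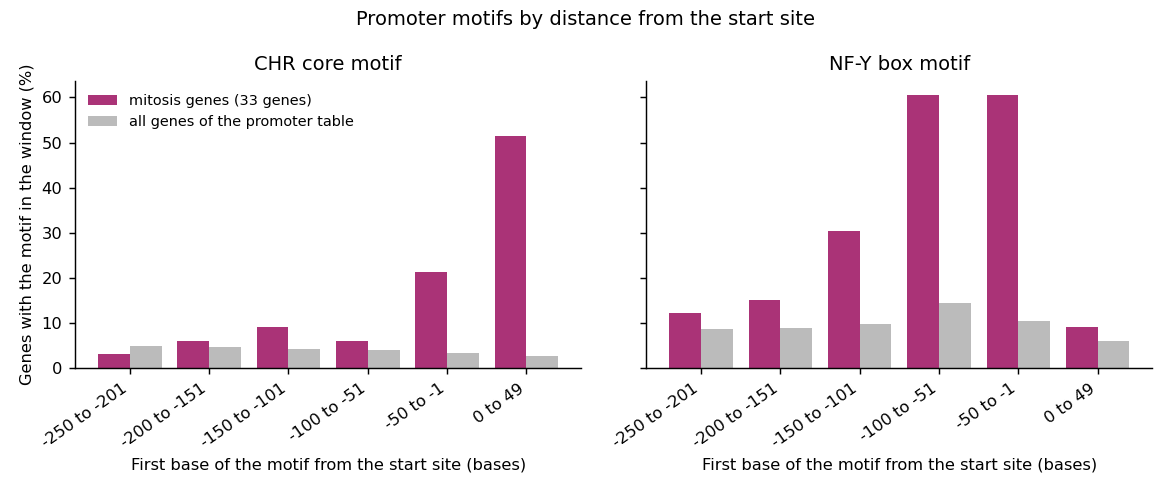
Share of genes (y axis, %) with a CHR core (left) or an NF-Y box (right) whose first base falls in each window of distance from the start site (x axis, bases), for 33 mitosis genes and for all genes of the promoter table. The mitosis genes reach 51.5% in the window just after the start for the CHR core and 60.6% in the pair of windows before it for the NF-Y box.

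Transcripts of the mitosis genes were high in progenitors, low in 1-day neurons and lower still in 4-day neurons. Their summed level in AP at 1 h was 8503 CPM at E12, 6931 at E13, 7046 at E14 and 7802 at E15, which is 7571 ± 732 CPM (SD, n = 4 days). In AP at 24 h it was 12214, 6086, 6742 and 4142 CPM, and in BP at 24 h it was 10408, 8422, 1389 and 4742 CPM. The low BP value came from E14, which held 8 cells, all of the cluster BP.late. N1d neurons at 24 h had 1741, 822, 553 and 1080.5 CPM, a mean of 1049 ± 509. N4d neurons at 96 h had 285.9, 249.5, 217.02 and 416 CPM, and interneurons at 96 h had 202.9, 166.2, 186.05 and 1492. All 4 sums of AP at 1 h lay above all 4 of N1d, and all 4 of N1d lay above all 4 of N4d, while AP and BP at 24 h overlapped with AP at 1 h. The E15 interneuron sum stood apart, and 70.9% of its mitosis gene counts came from 1 of its 35 cells, a cell of the cluster IN.2 at 22610 CPM. The next highest cell there had 3249 CPM. Single cells weighed in other sums too. The top cell held 48.8% of mitosis gene counts in BP of E14 and 28.2% in AP at 24 h of E12. It held 27.7% in N1d of E13 and 22.0% in N4d of E12.

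Per cell, the share above 1000 CPM in AP at 1 h was 99.4% of cells at E12 (Clopper-Pearson 95% interval 96.96 to 99.99), 86.6% at E13 (81.1 to 90.96), 86.7% at E14 (79.3 to 92.2) and 84.5% at E15 (78.9 to 89.1). The mean over days was 89.3% ± 6.84 (SD, n = 4) there, 75.1% ± 12.7 in AP at 24 h, 62.8% ± 23.6 in BP, 28.1% ± 17.1 in N1d, 7.37% ± 4.92 in N4d and 6.15% ± 5.51 in IN. These intervals cover counting error only. Among N1d neurons the E12 cells were high, with 52.3% above 1000 CPM (44.6 to 59.8), and the E13 cells were low, with 13.6% (8.64 to 20.1). Both came from the same run code. Their median cells had 1098 and 132.9 CPM. N1d cells at 24 h with more than 2000 CPM numbered 49 at E12, 12 at E13, 17 at E14 and 18 at E15. In N4d at 96 h, 20, 18, 21 and 4 cells had no count of any of the 38 genes, while the highest cell of each day had 16670, 6594, 7484 and 4744 CPM.

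**Figure D2:**
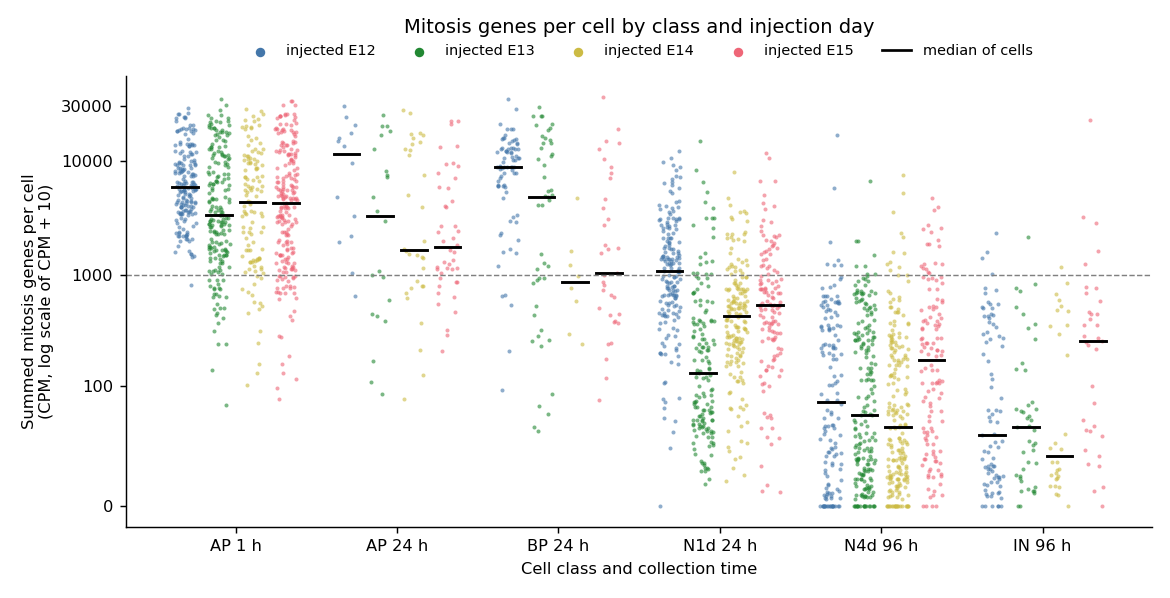
Summed mitosis genes per cell (y axis, CPM on a log scale of CPM + 10) by class and collection time (x axis), with 1 point per cell, colours for the 4 injection days, black bars for the median cell and a dashed line at 1000 CPM. Medians run from 11478 CPM in E12 AP cells at 24 h to 17.7 CPM in E14 interneurons at 96 h. Among E15 interneurons at 96 h, 1 cell reaches 22610 CPM and the next highest 3249 CPM.

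Depth was levelled by thinning each cell to 50000 counts. The median cell of AP at 1 h then held 21 of the 38 genes at E12 and 13, 14 and 14 at E13, E14 and E15. In N1d the median was 6, 3, 3 and 4 genes, and in N4d it was 1, 1, 1 and 2. Without thinning, the medians were 27, 22, 21 and 20 in AP at 1 h, and 2, 2, 2 and 4 in N4d. Hmgb2, a chromatin protein of the HMG box family, had a count in 92.96% of 710 thinned AP cells at 1 h and in 19.6% of 693 N4d cells. Smc4, a condensin subunit, had 81.5% and 23.7%. Mki67, the proliferation marker Ki-67 that coats mitotic chromosomes, had 76.5% and 9.38%. Ccnb1 had 48.7% and 2.60%, and Aurkb, the kinase of the chromosomal passenger complex, had 16.3% and 0.577%. Thinning left out 2 AP cells of E13 and 3 of E14 at 1 h and no N4d cell, and the median depth before it was 319330 counts in those AP cells and 344840 in N4d.

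At 1 h, when labelled cells have just divided, the authors' apical clusters separated cells by these genes. AP.mid2 cells had 16103 CPM in all at E13, 16084 at E14 and 17425 at E15, and AP.mid1 cells of the same days had 3033, 3293 and 4832 CPM. AP.late cells had 1932, 2339 and 2761 CPM, and AP.early cells at E12 had 8049 CPM. AP.mid2 made up 25.9%, 27.5% and 29.1% of AP cells at 1 h on E13, E14 and E15, and it held 67.04%, 67.4% and 73.4% of their mitosis gene counts. The 4 apical clusters differ in these genes by how they were drawn, so no test was made between them.

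Every member with a count in both clusters was higher in AP.mid2 than in AP.mid1 on each of the 3 days, and the folds differed among members. More than 2-fold higher were 38 of 38 at E13, against 16.6% of the 11230 genes tested, 38 of 38 at E14, against 22.2%, and 36 of 38 at E15, against 37.1%. Members with a small ratio were Smc4 with 2.52, 4.15 and 2.51 at E13, E14 and E15, Mki67 with 2.69, 3.35 and 2.65, Hmgb2 with 3.24, 2.88 and 1.91, and Cenpa, the centromeric histone H3 variant, with 3.61, 3.02 and 2.045. Aspm, a spindle pole protein of the microcephaly genes, had ratios of 14.55, 12.3 and 6.03. Ckap2l, which binds spindle microtubules, had 14.4, 25.25 and 6.51. Hmmr, a spindle pole protein, had 10.2, 14.3 and 7.35. Aurkb was at 59.7, 51.9 and 39.7 CPM in AP.mid2 and at 4.50, 0.624 and 0 CPM in AP.mid1. Cenpf, a kinetochore protein that is also on the nuclear envelope in G2, had 4.99, 5.10 and 5.165, and Cdc20, which activates the anaphase promoting complex, had 5.96, 6.08 and 6.36. Those 2 members varied little by day, while Plk1 (36.5, 4.88 and 6.58) and Prc1 (18.7, 2.98 and 10.35) varied widely.

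**Figure D3:**
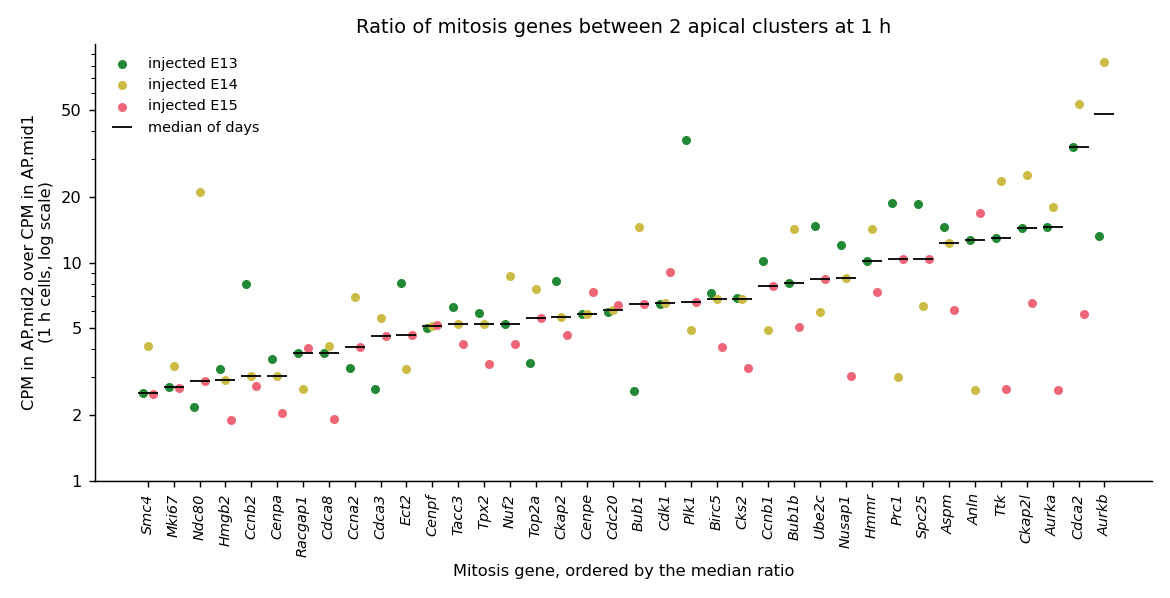
Ratio of CPM in AP.mid2 to CPM in AP.mid1 among 1 h cells (y axis, log scale) for each mitosis gene (x axis, ordered by the median), with 1 point per injection day and a bar at the median. Smc4 and Mki67 lie at the low end with medians of 2.52 and 2.69, and Cdca2 and Aurkb at the high end. The E15 point of Aurkb is missing because AP.mid1 had no count.

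Basal progenitors 24 h after labelling showed a similar split. BP.early cells had 11950 CPM at E12 and 13423 at E13, and BP.late cells had 1566 and 1560 CPM on those days and 1296 at E15. More than 2-fold higher in BP.early were 37 of 38 members at E12, against 39.2% of genes, and 37 of 38 at E13, against 27.9%. The exception on both days was Anln (anillin, of the cleavage furrow), at 20.4 and 46.97 CPM in BP.early and 39.7 and 26.2 in BP.late.

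The clusters of the 2 progenitor kinds with high levels of these genes can be set side by side at E13. BP.early at 24 h and AP.mid2 at 1 h differed by more than 2-fold in 10 of 38 members, 3 higher and 7 lower in BP.early, against 51.1% of all genes in either direction. Higher in BP.early were Cdk1 with 432 against 172.9 CPM, Aurkb with 142.9 against 59.7, and Top2a, the topoisomerase that untangles chromosomes, with 1549 against 719. Lower were Aspm with 89.6 against 372 CPM, Cdc20 with 174.4 against 485, Cdca2 with 59.8 against 151.96, Cks2 (a Cdk-binding subunit) with 310 against 745, Cenpf with 416 against 914, Prc1 with 220.8 against 470 and Cenpa with 342 against 701. S phase genes were higher in BP.early, while 24 of the 38 members were lower there. The median cell had 7692 CPM of the 37 S phase genes in BP.early and 2772.5 in AP.mid2, and their part in the result was not tested. These are values of 1 sum each with no replicate, and time and run differ too. AP.mid2 cells at E14 were met at 24 h (12 cells) and at 1 h (33 cells), with 15803 and 16084 CPM in all. There, 4 of 38 members differed by more than 2-fold, against 50.8% of all genes. Ccnb2 was higher at 24 h, with 438 against 211.4 CPM, and Aspm, Prc1 and Ttk were lower, with 171.1 against 441, 235.5 against 535 and 50.8 against 107.8.

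**Figure D4:**
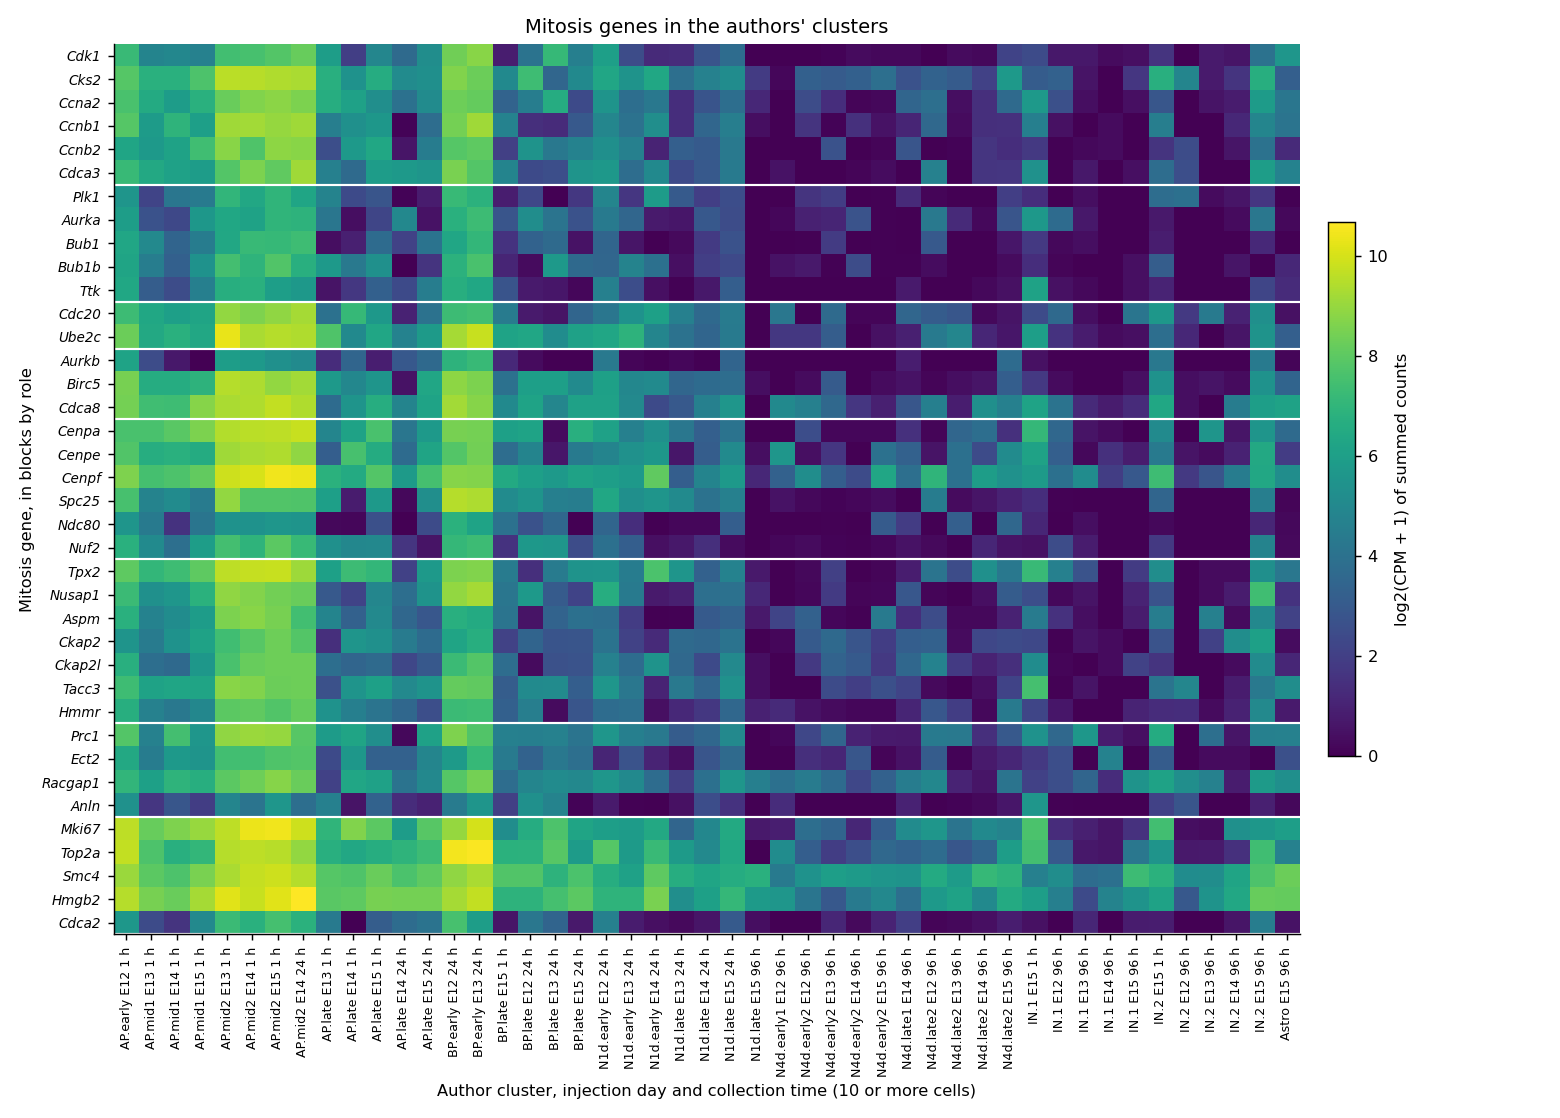
Level of each mitosis gene (rows, in blocks by role from cyclins and Cdk1 at the top to chromosome structure at the bottom) in each author cluster, injection day and collection time with 10 or more cells (columns), as log2(CPM + 1) of summed counts. AP.mid2 and BP.early columns are bright in nearly every row, AP.early lies between, and N4d and IN columns at 96 h are dark in most rows, with Smc4 and Hmgb2 among the brighter ones, except IN.2 of E15 (1975 CPM over all members). Levels were not corrected for transcript length, and its part in differences between rows was not tested.

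The comparison of N1d neurons at 24 h with AP cells at 1 h asked how far the genes fall a day after the labelled division. Class and collection time differ together in it. Of the 38 members, 18 fell and none rose by edgeR's quasi-likelihood test with Benjamini-Hochberg adjustment over 11230 genes, where 5.24% of genes were called lower. All 38 estimates were below 0, with a median of -3.26 on the log2 scale, against -0.01 over all genes, and 34 members had an unadjusted p under 0.05. The share of all genes under that unadjusted cut-off is not given here, in this or any later comparison or slope. In 37 of 38 members all 4 N1d sums lay below all 4 AP sums, against 15.5% of genes. The exception was Aurkb, with 18.0 CPM in N1d at E12 against 13.6 CPM in AP at E15.

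Among cyclins and Cdk1, 2 of 6 fell. Ccnb1, cyclin B1, had 241.01, 201.8, 246.1 and 197.8 CPM in AP at 1 h from E12 to E15 and 27.55, 10.8, 11.8 and 22.6 CPM in N1d. The groups were far apart, and the log2 change was -3.78 ± 1.07 (SE, edgeR adjusted p = 0.0211). Ccna2, cyclin A2, had 205.8, 156.2, 163.99 and 181.4 CPM in AP and 46.4, 9.47, 6.34 and 13.4 in N1d, a change of -3.56 ± 0.98 (edgeR adjusted p = 0.0185). The N1d value of Ccna2 was high at E12. Cdk1 had 152.2, 76.8, 73.5 and 91.9 CPM against 59.7, 3.59, 5.70 and 12.8, and its estimate of -2.65 ± 1.12 did not pass (edgeR adjusted p = 0.138). Ccnb2 (cyclin B2), Cks2 and Cdca3, a trigger of mitotic entry, had estimates of -2.84, -2.89 and -3.29 and did not pass.

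Among mitotic kinases and checkpoint genes 1 of 5 fell. It was Bub1b, the checkpoint protein BubR1, with 79.6, 72.6, 44.2 and 98.7 CPM in AP and 9.99, 17.7, 3.37 and 4.13 in N1d (-3.29 ± 0.90, edgeR adjusted p = 0.0168). Plk1, Aurka, Bub1 and Ttk (the checkpoint kinase Mps1) had estimates from -3.80 for Bub1 to -2.18 for Aurka. Of the partners of the anaphase promoting complex, Ube2c, its ubiquitin-conjugating enzyme, fell from 360, 447, 252.98 and 286.3 CPM to 74.1, 83.6, 10.9 and 20.5 (-3.26 ± 0.97, edgeR adjusted p = 0.0279). Cdc20 had an estimate of -3.11 ± 1.09 and did not pass (edgeR adjusted p = 0.0638).

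The chromosomal passenger complex, which corrects the attachment of chromosomes to the spindle, had 1 of 3 lower. Cdca8 (borealin) had 369, 288.1, 299.2 and 368.5 CPM in AP and 65.96, 23.4, 22.9 and 47.1 in N1d (-3.22 ± 0.84, edgeR adjusted p = 0.0125). Birc5 (survivin) and Aurkb had estimates of -3.56 ± 1.28 and -3.62 ± 1.93. Of centromere and kinetochore genes, 4 of 6 fell. Cenpa had 213.5, 319.5, 364.5 and 408 CPM in AP and 63.7, 22.0, 9.76 and 15.8 in N1d, a change of -3.95 ± 0.87 (edgeR adjusted p = 0.00375). Cenpf had 402, 394, 437 and 615 CPM against 63.85, 38.4, 37.3 and 59.9, and it had the smallest adjusted p of the 38 (-3.25 ± 0.56, edgeR adjusted p = 0.000414). Cenpe, the kinetochore motor, and Nuf2, of the Ndc80 complex that holds microtubules, fell by 3.59 and 4.09 on the log2 scale. Their partners Spc25 and Ndc80 had estimates of -2.12 ± 1.02 and -3.11 ± 1.33.

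Among spindle genes 3 of 7 fell. Tpx2, which activates Aurora A on the spindle, had 276.03, 322, 363 and 389 CPM in AP and 42.999, 29.8, 17.0 and 25.5 in N1d (-3.71 ± 0.84, edgeR adjusted p = 0.00457). Aspm had 111.2, 133.9, 152.4 and 140.6 CPM against 12.6, 1.85, 6.715 and 11.5, a change of -4.24 ± 1.15 (edgeR adjusted p = 0.0167). Hmmr fell by 3.86, and Nusap1, Ckap2, Ckap2l and Tacc3 had estimates from -2.79 to -2.55. For cytokinesis 3 of 4 fell. Prc1, which bundles the central spindle, had 236.9, 161.96, 277.2 and 190.1 CPM against 46.2, 18.0, 11.0 and 31.6 (-3.41 ± 0.73, edgeR adjusted p = 0.00285). Racgap1 of the centralspindlin complex fell by 2.38 and Ect2, its partner that activates RhoA, by 3.75, while Anln had an estimate of -3.29 ± 1.51.

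For chromosome structure 3 of 5 fell. Mki67 had 795.5, 422, 666 and 647.5 CPM in AP and 61.6, 41.7, 32.1 and 92.1 in N1d (-3.54 ± 0.76, edgeR adjusted p = 0.00314). Smc4 had 559, 387, 407 and 513 CPM against 95.2, 77.996, 84.5 and 96.4 (-2.36 ± 0.41, edgeR adjusted p = 0.000467). Hmgb2 had 713, 589.5, 484 and 643 CPM against 116.8, 93.8, 78.3 and 137.5 (-2.54 ± 0.48, edgeR adjusted p = 0.000894). The N1d sums of Smc4 varied little by day. Top2a had 868, 410, 327 and 311 CPM against 227.6, 55.5, 36.8 and 83.4, and its estimate of -2.54 ± 0.93 did not pass (edgeR adjusted p = 0.0772). Without a single sum, the count of 18 ran from 9 to 29. It was 10 without AP at 1 h of E14, 11, 9 and 10 without N1d of E13, E14 or E15, and 29 without IN at 96 h of E15, the sum ruled by 1 cell. The share of all genes called in these fits is not given here. Cdca8, Cenpa, Cenpf, Hmgb2, Mki67, Prc1, Smc4 and Tpx2 passed without any of the 24 sums. Fitted on the 8 sums of these classes alone, 37 of 38 passed, where 12.44% of genes were called lower, against 5.24% in the fit of all sums. DESeq2 called 31 members and 9.76% of genes lower. When all cells of each time were summed whatever their cluster, an alternative chosen after seeing the data, 19 members and 5.92% of 10243 genes were lower. Bub1b, Ccna2, Nuf2 and Prc1 then lost the call, and the changes were smaller in size, such as -1.33 for Cdca8 and -1.54 for Cenpa.

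Other genes of the cell cycle were followed from lists. Of 56 tested other G2 and M genes 15 fell, among them Knstrn, a kinetochore and spindle protein, from a mean of 158.8 to 9.93 CPM, and Kif11, the motor that separates the spindle poles, from 100.7 to 9.18 CPM. Of 37 S phase genes 12 fell, among them Uhrf1, which keeps DNA methylation at replication, from 172.3 to 14.0 CPM, and Cdt1, a licensing factor of origins, from 153.2 to 17.6 CPM. Of 20 genes that control G2 and M transcription 1 fell, and of 17 subunits and regulators of the anaphase promoting complex none did (1 with an unadjusted p under 0.05). The complex's genes summed to 2094 to 2254 CPM in AP at 1 h and 1902 to 2167 in N1d. Apical progenitor markers fell in 9 of 11 and young neuron markers rose in 9 of 9 in the same comparison. Over all 11230 genes 5.24% were called lower and 7.41% higher in this comparison, so 1 of 20 is near the background. Whether the difference in counts between these lists exceeds the spread was not tested.

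**Figure D5:**
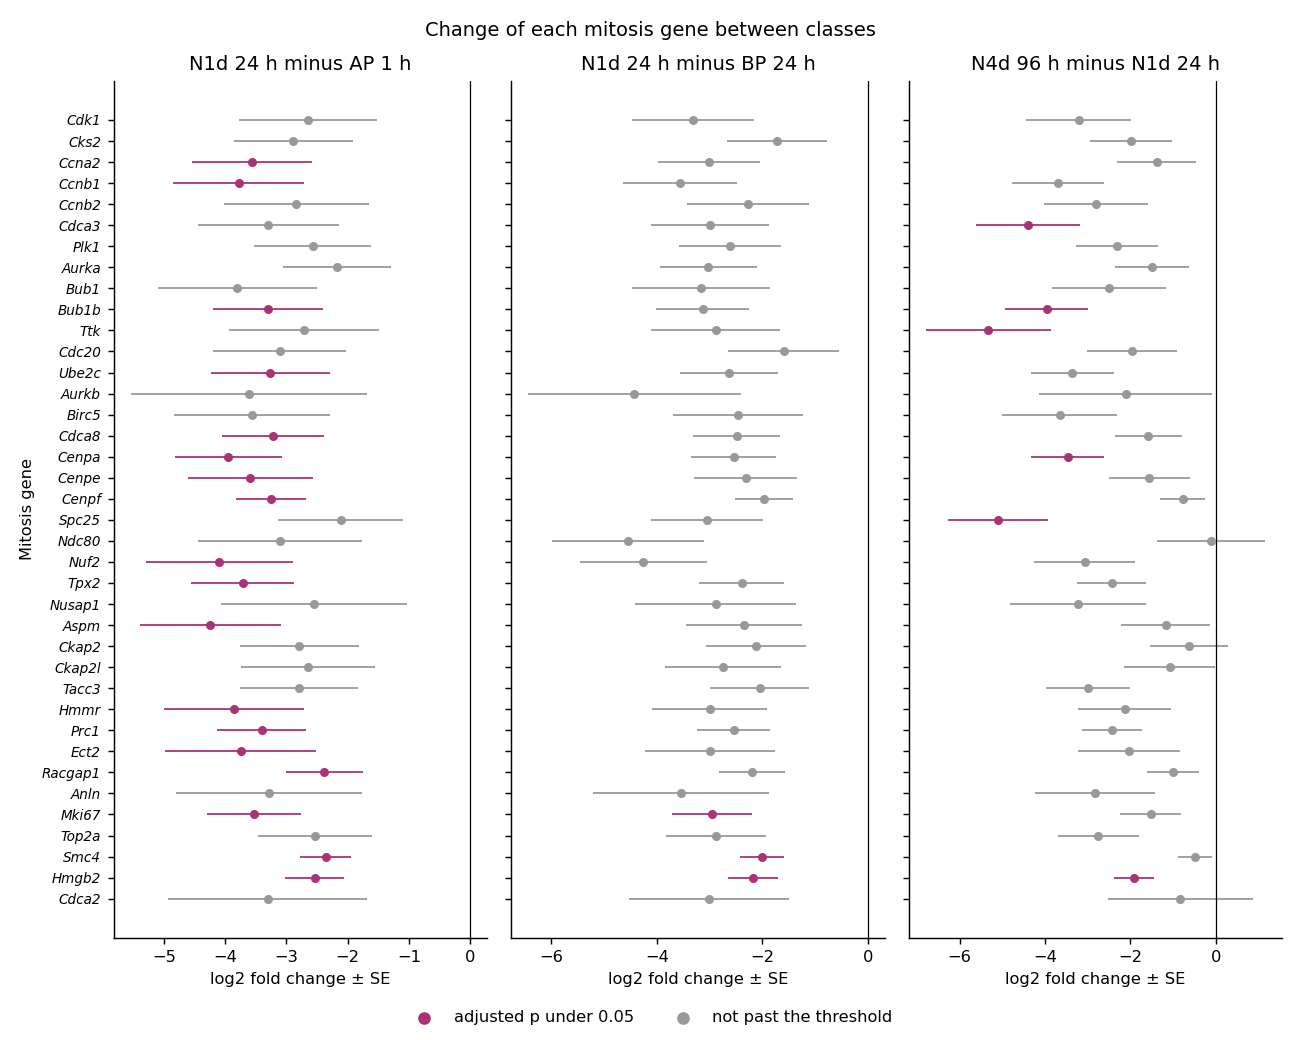
Log2 fold change with its standard error (x axis) of each mitosis gene (y axis) in 3 comparisons of class sums, in purple where the adjusted p of edgeR was under 0.05 and in grey otherwise. All 38 points lie left of 0 in each panel, and 18, 3 and 6 of them pass.

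Against basal progenitors of the same 24 h samples, 3 members were lower in N1d, where 1.15% of genes were called lower. They were Smc4, with 443, 418, 223.5 and 317 CPM in BP against 95.2, 77.996, 84.5 and 96.4 in N1d (-2.01 ± 0.41, edgeR adjusted p = 0.00822), Hmgb2 (-2.17 ± 0.47, edgeR adjusted p = 0.0133) and Mki67 (-2.96 ± 0.75, edgeR adjusted p = 0.0364). Hmgb2 had 531, 552.5, 212.6 and 623 CPM in BP, and Mki67 had 441, 675, 69.5 and 431. All 38 estimates were below 0, with a median of -2.81, and 32 had an unadjusted p under 0.05. In 10 of 38 members all 4 BP sums lay above all 4 N1d sums, against 5.00% of genes. The BP sum of E14 was near N1d for many members, such as Cks2 with 1.74 CPM in BP at E14 and 27.4 in N1d, and Birc5 with 1.50 and 13.1. That sum had 8 cells. Without it 8 members passed, and without IN of E15 15 did. The count was 1 without BP of E13 or N1d of E14 or E15, 5 without N4d of E13 or E14 or IN of E12 or E13, and 8 without IN of E14. For fits without 1 sum the share of all genes called is not given here. DESeq2 called 20 members and 3.87% of genes lower, and a fit of these 8 sums called 14 members and 1.59% of genes.

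Between basal and apical progenitors at 24 h no member passed by edgeR, where 1.87% of genes did in either direction, Cenpf alone had an unadjusted p under 0.05, and DESeq2 called 1. Cenpf had 821, 364, 528 and 296.4 CPM in AP and 372, 263.3, 41.6 and 130.9 in BP (-1.42 ± 0.54, edgeR adjusted p = 0.21), so BP was lower on each day. The member estimates had a median of -0.48, with 22 below 0 and 16 above. Basal progenitor markers rose in 4 of 7 in this comparison, among them Eomes, and apical markers fell in 2 of 11. AP cells at 24 h against 1 h gave no member past the threshold (0 with an unadjusted p under 0.05, 0 by DESeq2), where 0.347% of genes passed. Sums were matched by injection day, so tissue at 24 h was a day older than at 1 h. A fit matched by day of collection is not reported here. Prc1 had the lowest estimate, -0.92 ± 0.67, and Ndc80 the highest, 0.86 ± 1.22. Precision differed widely between members, from Smc4 with -0.14 ± 0.40 to Aurkb with 0.10 ± 1.63, and the AP sums at 24 h held 14 to 44 cells. The clusters behind these sums differed: of E12 AP cells 95.03% were AP.early at 1 h and 57.1% AP.mid2 at 24 h, and of E13 AP cells 62.7% were AP.mid1 at 1 h and 18.2% at 24 h.

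From N1d at 24 h to N4d at 96 h, 6 members fell by edgeR, where 2.00% of genes were called lower, and all 38 estimates were below 0 with a median of -2.22. Hmgb2 went from 116.8, 93.8, 78.3 and 137.5 CPM to 27.2, 21.8, 17.15 and 56.6 (-1.91 ± 0.47, edgeR adjusted p = 0.0201). Cenpa went from 63.7, 22.0, 9.76 and 15.8 to 3.14, 1.76, 2.33 and 0.8415 (-3.47 ± 0.86, edgeR adjusted p = 0.0208). Spc25 went from 76.8, 36.8, 16.7 and 23.8 to 4.05, 1.15, 0.0946 and 0.594 (-5.10 ± 1.18, edgeR adjusted p = 0.0141). Bub1b, Cdca3 and Ttk fell by 3.96, 4.39 and 5.33, and Ttk had no count in N4d of E12 or E13. In 18 of 38 members the groups did not overlap, against 11.0% of genes. An unadjusted p under 0.05 was met by 19 members, with no share of all genes given at that cut-off. Smc4 kept 48.4, 63.1, 55.8 and 89.6 CPM in N4d and did not pass (-0.48 ± 0.40, edgeR adjusted p = 0.664), nor did Cenpf (-0.78 ± 0.53), Ndc80 (-0.11 ± 1.28) or Racgap1 (-0.99 ± 0.61). The count of 6 was 10 without BP of E14 or IN of E15, 2 without N1d of E12 or E13 or N4d of E12, 3 without N4d of E13 or E14, and 1 without N4d of E15. It was 12 by DESeq2, 13 in a fit of the 8 sums alone, and 36 when all cells of each time were summed whatever their cluster. The share of all genes called lower was 3.78%, 5.73% and 10.07% there, the last of 10243 tested. That share is not given here for the fits without 1 sum.

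Between interneurons and N4d neurons at 96 h no member passed by edgeR (0.988% of genes passed). An unadjusted p under 0.05 was met by 6 (Cdca3, Cenpa, Ndc80, Nuf2, Prc1 and Hmgb2). The share of all genes at that unadjusted cut-off is not given here, so these 6 have no background to be set against. DESeq2 called 2 higher in interneurons. The interneuron sum of E15 stood far above its other days in 17 members. Top2a had 123.9 CPM there against 0.661 to 5.16 on the other days, and Nusap1 had 118.3 against 0.127 to 0.385. Without that sum 3 members were lower in interneurons, and without IN of E14 1 was higher. Summed apical progenitor markers (11 genes, none at 0) were 1278 CPM in that sum against 328 to 404 on the other days, and their part in the result was not tested. N4d of E15 was also the highest N4d sum, with apical markers at 952 CPM against 174.3 to 418.

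Across injection days no member passed for a slope in AP at 1 h (0.142% of genes passed), AP at 24 h (0.784%), BP at 24 h (0.00890%) or N1d at 24 h (0.0267%). By unadjusted p under 0.05 there were 0, 2 (Spc25 and Ndc80), 1 (Spc25) and 1 (Nuf2), and DESeq2 called 2 in AP at 24 h and 0 in the others. In AP at 1 h the median slope was -0.06 log2 units per day. Single members ran both ways there without passing: Ckap2, a spindle protein, had 45.9, 61.7, 103.01 and 135.7 CPM from E12 to E15 (0.52 ± 0.34 per day), and Top2a had 868, 410, 327 and 311 (-0.51 ± 0.47). The S phase genes had 37 of 37 slopes below 0 in AP at 1 h, with a median of -0.70 per day, and none passed (12 with an unadjusted p under 0.05). Their summed level was 8061, 3866, 2791 and 2049 CPM from E12 to E15, beside 8503, 6931, 7046 and 7802 for the mitosis genes. In AP at 24 h 37 of 38 members had a slope below 0, and in BP all 38 did, with medians of -0.48 and -0.58, and none passed. The median slope over all genes is not given here for any class. Genes of a list vary together over the sums, so a shared sign is not a set of separate results. Spc25 had 566.5, 189.5, 85.9 and 69.3 CPM in AP at 24 h (-1.03 ± 0.34, edgeR adjusted p = 0.158) and 618, 391, 130.8 and 123.7 in BP (-0.86 ± 0.36, edgeR adjusted p = 0.539). The share of AP.mid2 among AP cells at 24 h was 57.1%, 36.4%, 37.5% and 15.9% over those days, and that of BP.early among BP cells was 82.1%, 53.2%, 0% and 25.7%. E12 and E13 shared a run at 24 h and E14 and E15 another, and with run as a term no member passed either.

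Over the 24 sums, log2 levels of the members followed one another closely, as a description over sums that share classes, days and runs. With the sum of the other members, Pearson's r was highest for Ccnb1 (0.982), Cdca3 (0.975) and Ccna2 (0.975), and lowest for Ect2 (0.807), Cdc20 (0.827) and Ndc80 (0.846). Among 7439 genes with a mean of at least 20 CPM, the non-members most like the summed members were Melk (0.970), Foxm1 (0.969), Gmnn (0.965), Nde1 (0.962), Sgol1 (0.956), Kif22 (0.955), 1190002F15Rik (0.953), Gsta4 (0.952), Spc24 (0.952) and H2afz (0.951). Foxm1, the forkhead factor that drives G2 and M genes, had 60.6, 41.8, 27.7 and 41.9 CPM in AP at 1 h and 13.8, 10.1, 4.12 and 5.74 in N1d, and its change of -2.36 ± 1.20 did not pass (edgeR adjusted p = 0.233).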

How the data were processed

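Single cells were caught on C1 HT microfluidic chips, amplified with SMART-Seq v4 chemistry and sequenced paired-end, per the labels' protocols. The deposited table holds the authors' raw counts per gene and cell. Per the submitters' processing notes, TopHat2 2.0.13, UMI-tools and GRCm38 were used, with no role given, and the counter and annotation are not given in the sources used here. Cell totals were at least 0.9869 of the read number in the labels, so the counts were treated as reads. That number may itself come from the counts, so the match does not settle whether they are reads or molecules. A cell held 13191 to 1312820 counts, with a median of 328909.5. Columns of cells with identical counts numbered 0.

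Counts were summed over the cells of a class and injection day, with classes from the authors' clusters, and tested with edgeR 4.0.16 in R 4.3.3 (quasi-likelihood, TMM, a term for class and one for injection day, 15 residual degrees of freedom). Genes with at least 10 CPM in 3 of the 24 sums were tested, 11230 in all, with Benjamini-Hochberg adjustment and a threshold of 0.05. Slopes had a level and a line per class (12 residual degrees of freedom). The fits were tested on simulated data. DESeq2 1.42.0 and other filters, scalings, samples and thinning depths were tried as alternatives. Per-cell detection was counted after thinning to 50000 counts. Promoters came from RefSeq sequences on GRCm38.p6, searched on both strands, with 27025 genes as background.

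The 38 members, the other lists and the tests were chosen with earlier results of these data known. Members were named by role. From each other list, up to 4 genes with the largest change among those called, at a mean of at least 50 CPM, could be named, and the 10 non-members most correlated with the members over the 24 sums. Foxm1 came in by that rule.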

Additional observations from a re-analysis of the deposited data

Results flagged for a closer look

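Over the 38 members and their sum in each class with 4 days, 30 groups had 1 day that lay apart, with a gap to the nearest day over the whole range above 0.829. Chance gives about 1 in 20 groups for normal values. The values here need not be normal and the members vary together, so that rate is no measure for the 30 groups. Of these, 18 were interneurons at 96 h of E15, where 1 cell held 70.9% of the member counts. The summed members there were 1492 CPM, against 166.2 to 202.9 on the other days. Single members there were Cdk1 at 10.85 CPM, Ccna2 at 40.7, Ccnb1 at 19.99, Ccnb2 at 10.95, Cdca3 at 43.5 and Ttk at 2.765. Ube2c was at 31.6 CPM, Aurkb at 13.9, Birc5 at 30.6, Cenpe at 60.6, Spc25 at 16.2 and Nusap1 at 118.3. Ckap2l was at 25.7 CPM, Hmmr at 22.4, Top2a at 123.9, Smc4 at 189.7 and Cdca2 at 15.85.

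N1d neurons of E12 lay apart in Cdk1 at 59.7 CPM (3.59 to 12.8 on the other days), Plk1 at 26.7 and Nusap1 at 93.85. AP cells at 1 h of E12 lay apart in Ttk at 83.7 CPM and Aurkb at 70.6. AP cells at 24 h of E12, a sum of 14 cells, lay apart in Prc1 at 310.4 CPM and Anln at 45.3. N4d neurons of E15 lay apart in Cks2 at 30.3 CPM, Aurkb at 5.25, Cenpe at 22.6 and Hmmr at 8.59, and those of E13 in Nuf2 at 1.49.

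Some cells lay outside the 24 sums and entered no comparison, and groups of them from E15 are given here. BP cells at 1 h (32 cells) had 1719 CPM of summed members, interneurons at 1 h (33 cells) 1372.7 CPM and astrocytes at 96 h (54 cells) 1067.7 CPM, each above the 217.02 to 416 CPM of N4d neurons at 96 h. The highest of these BP cells had 21043 CPM, and the highest astrocyte 11189. The median astrocyte had 613 CPM, and 23.5 CPM without Hmgb2, Smc4 and Top2a. Of neurons, N1d cells at 1 h (10 cells) had 1923.6 CPM, N4d cells at 1 h (13 cells) 1049.3 CPM and N1d cells at 96 h (11 cells) 198.6 CPM. Interneurons at 96 h had 166.2 to 202.9 CPM on E12 to E14 and 1492 CPM at E15. Within a class label, levels thus differed between collection times, and the cause was not tested.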

How the results depend on the processing

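Counts of called members moved with the test, the samples in the fit and the cells summed. Of 887 recomputed values of the 27 called pairs of gene and comparison 0 reversed. These pairs were picked for passing and refitted on largely the same counts, so the lack of reversals is no separate test of direction. Calls were lost. For N1d against AP at 1 h, 7 of 18 calls were kept in every setting. For N1d against BP it was 1 of 3, and for N4d against N1d 0 of 6. For N1d against BP, 5 members were lower with DESeq2 size factors, 20 with DESeq2, 8 with at least 50 CPM in 3 sums and 14 with only the compared classes. For N1d against AP at 1 h these were 31 with DESeq2, 37 with only the compared classes and 19 with all cells of each time. For N4d against N1d they were 12 and 13, and 36 with all cells of each time, chosen after seeing the data. DESeq2 also called 1 member lower in BP than in AP at 24 h, 2 higher in IN than in N4d and 2 lower for the slope of AP at 24 h. Leaving out 1 sum gave 9 to 29 lower for N1d against AP at 1 h, 1 to 15 for N1d against BP, 1 to 10 for N4d against N1d, and 0 to 3 lower and 0 to 1 higher for IN against N4d. Without the replicate block of injection day, 17, 3 and 4 members were lower in those first 3 comparisons, and 0 in the others. For fits without 1 sum or without the block, with DESeq2 size factors or with the 50 CPM filter, the share of all genes called is not given here. A move of the members is not told apart from a change over all genes there. The mean share of cells above the cut-off in AP at 1 h was 96.3% at 500 CPM, 74.1% at 2000 CPM and 80.9% without Hmgb2, Smc4 and Top2a. AP at 24 h gave 56.9% at 2000 CPM and 58.15% without these genes, and N1d, N4d and IN gave 49.75%, 18.7% and 17.3% at 500 CPM. The mean over 4 days of the median number of members detected per interneuron was 0.5 after thinning to 20000 counts and 1.75 after thinning to 100000. The cause of these shifts was not tested. Sums of few cells, such as BP of E14 with 8, limit what can be detected.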
